A study of Mus musculus with 12 samples.

Results

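The cytosolic ribosomal protein genes were followed in subcutaneous mouse lung tumors with and without knockdown of *Filip1l*. Members were taken by symbol, as *Rpl* or *Rps* followed by a number and at most a paralog letter and number, together with *Rplp0*, *Rplp1*, *Rplp2* and *Rpsa*, leaving out entries named as pseudogenes with the suffix -ps. This gave 87 of the 15687 genes in the deposited table, out of 89 annotated symbols that match. *Rpl10l* and *Rps12l1* are not listed in the table used here. Of the 87 members, 82 are annotated as protein-coding and 5 (*Rpl32l*, *Rpl6l*, *Rps3a2*, *Rps3a3* and *Rps4l*) as processed pseudogenes despite their symbols. The 77 protein-coding members that remain without the paralogs *Rpl3l*, *Rpl7l1*, *Rpl22l1*, *Rpl39l* and *Rps27l* are called core members below, 46 of the large and 31 of the small subunit.

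Cells of mTc11, a mouse lung cancer line, were injected in Matrigel under the skin of male C57BL6/J mice aged 8 weeks, and the tumors were collected on day 24. CTL tumors (n = 6) came from cells with a scrambled shRNA and *Filip1l*-knockdown tumors (n = 6) from cells with a lentiviral shRNA to *Filip1l*. The labels give the genotype of the first as WT and of the second as Filip1l KD, and the hosts of both were of the same strain, sex and age. The transduced cells were mixed clones, and the text read here does not say which of the shRNA targets the sequenced tumors carried. RNA of whole tumors was sequenced, so host cells contributed reads. P-values measure the spread between these tumors, each of which the labels give as a sample of its own. They do not measure the spread between separately transduced cell populations. An effect of the knockdown therefore cannot be told apart here from other differences between the CTL and the knockdown cells.

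Ribosomal proteins assemble with ribosomal RNA into the large and small subunits of the ribosome. In mammals their mRNAs are among the most abundant of a growing cell, and nearly all of them start with an oligopyrimidine tract (a TOP tract), through which their translation follows nutrient signals by way of mTORC1. Some members have further roles as free proteins, such as *Rpl5* and *Rpl11*, which bind Mdm2 and stabilise p53, and several, *Rpl7* here, serve as reference genes in quantitative PCR.

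The values are reads per gene divided by a size factor for each tumor (normalized counts), and 17834745 to 32419578 reads per tumor fell on the listed genes. In knockdown tumors *Filip1l* itself had 1670, 1935 and 2184 normalized counts (lowest, median and highest) against 1983, 2354 and 2542 in CTL tumors. Its log2 fold change was -0.26 (limma adjusted p = 0.00998), and the groups overlapped. Among all genes, knockdown replicate 1 and CTL replicate 5 lay farthest from their own groups. Markers of other cell types moved between the groups as well. The summed skeletal muscle markers ranged from 4643 to 20030 in CTL and from 12360 to 145700 in knockdown tumors, the fibroblast markers from 172200 to 287900 and from 81130 to 265200, and the epithelial markers from 149500 to 196300 and from 215800 to 394700. Called by limma were 25 of 27 muscle markers, all higher, 3 of 10 fibroblast markers, all lower, 6 of 7 epithelial, 5 of 6 endothelial and 6 of 8 neutrophil markers, all higher, and 1 of 10 macrophage markers, higher. Of 6 lung epithelial markers, 2 were higher and 1 lower, and *Sftpc*, which defines alveolar type II cells, was at 0 in at least 1 tumor of each group. The share of these differences in the members' values was not tested. In bulk tumors, fewer cells of a type and less RNA per cell cannot be told apart.

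Sequences at the start sites were read for the members. RefSeq start-site sequences (GRCm38.p6) were matched for 63 members, 57 of them core, at the RefSeq start nearest to the annotated gene start. In a window of 50 bases, 25 before and 25 from the start, an unbroken run of at least 8 C or T on the sense strand was found in 27 of the 57 core members (47.4%), against 19.1% of the 11533 listed genes with a match. Such a run stood in 6 of the 14 matched core members called lower in knockdown tumors (42.9%) and in 21 of the 43 others (48.8%), and a run is a description of letters, not a mapped TOP tract. The motif CCGGAA, on either strand, which is the core of sites bound by ETS factors, was in 50.9% of core members and in 26.5% of listed genes, over 300 bases. Windows of some of the members that carried the results are shown here, with their longest run of C and T in capitals. Each core window shown holds a run of at least 8. Members called lower with shorter runs, such as *Rps4x* and *Rpl9* (4 letters each) and *Rps3* (5 letters), are not shown. The order is core members that fell, then those that rose, then a partner and its paralog, then the muscle paralog.
Rpl13: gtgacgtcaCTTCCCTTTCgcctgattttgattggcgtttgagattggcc
Rps12: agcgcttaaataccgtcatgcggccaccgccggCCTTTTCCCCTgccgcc
Rps15a: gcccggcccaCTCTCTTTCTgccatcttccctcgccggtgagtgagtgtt
Rpl15: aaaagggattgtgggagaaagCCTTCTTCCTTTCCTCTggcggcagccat
Rps24: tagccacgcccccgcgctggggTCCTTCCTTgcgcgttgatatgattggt
Rps27: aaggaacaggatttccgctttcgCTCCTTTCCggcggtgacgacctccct
Rps27l: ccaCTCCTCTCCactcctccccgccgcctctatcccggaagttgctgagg
Rpl3l: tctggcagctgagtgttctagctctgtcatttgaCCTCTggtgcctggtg
These lie at chr8:123102325-123102374 on the + strand, chr10:23787185-23787234 on the - strand, chr7:118116123-118116172 on the - strand, chr14:18270962-18271011 on the - strand, chr14:24490653-24490702 on the + strand, chr3:90213624-90213673 on the - strand, chr9:66946061-66946110 on the + strand and chr17:24727801-24727850 on the + strand, in the order printed. The run of *Rpl15* crosses its start and is 17 letters long, while the longest run of *Rpl3l* has 5 letters. For *Rps24* the RefSeq start used lies 3553 bases inside the annotated gene.

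The median log2 fold change of the 87 members, knockdown minus CTL, was -0.18, against 0.01 over all 15687 genes, and 72 members lay below 0. It was -0.11 with tumors weighted by their quality (array weights), where 66 members lay below 0. With these weights 14 members were called lower, beside 23.5% of all genes. Past an adjusted p under 0.05 (limma, Benjamini-Hochberg over all genes), 20 members were lower and 4 were higher. Of all genes, 20.7% were called lower, 21.1% higher and 41.9% in either direction. The 23.0% of members called lower stands near that background and is no result about the members, whereas the 4.6% called higher is below it. No core member changed by more than 1 on the log2 scale, and past both thresholds stood 1 member, the paralog *Rpl3l*, where 10.2% of all genes did. The groups overlapped for 74 of the 77 core members.

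The summed members took 5.28, 5.35, 6.70, 6.46, 5.68 and 5.64% of the normalized counts in CTL replicates 1 to 6. In knockdown replicates 1 to 6 they took 4.79, 5.05, 4.73, 4.79, 5.59 and 5.27%. The means were 5.85 ± 0.591% and 5.04 ± 0.338% (SD, n = 6 each), CTL replicates 3 and 4 were high, and knockdown replicate 5 lay above CTL replicates 1 and 2. The members moved as a block. With each group's mean removed, a core member followed the median of the other core members with a median Pearson r of 0.97 over the 12 tumors, from 0.67 to 1.0, and 72 of 77 were above 0.8. Each such value shares its library and its size factor with the others, so this describes these libraries. The median offset of the core members from the CTL mean, on the log2 scale, ran from -0.17 to 0.25 in CTL and from -0.33 to 0.02 in knockdown tumors. The median of all other genes stayed within -0.003 and 0.012 in the 12 tumors. The size factors hold the typical gene of each tumor level, so that narrow range was set by the scaling and is no result.

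**Figure D1:**
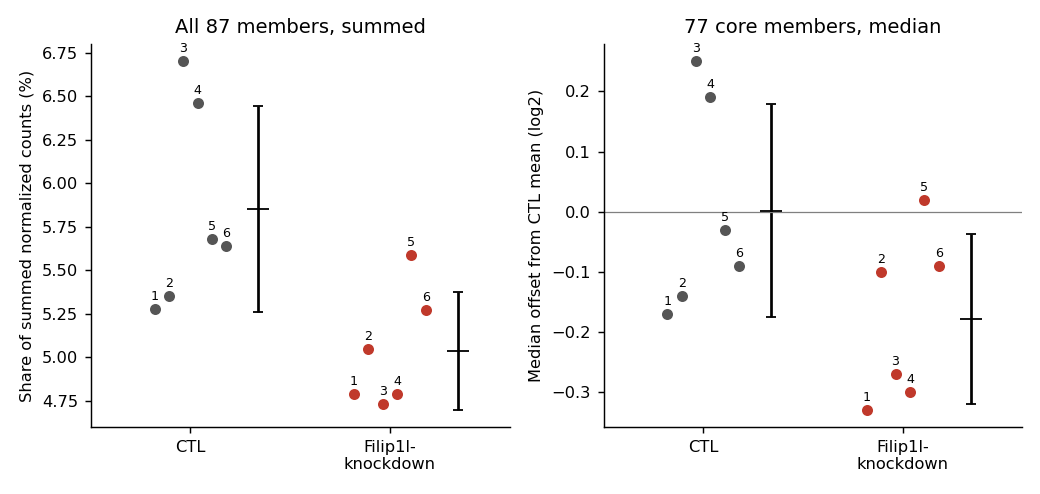
Left, share of the summed normalized counts taken by the 87 members, in percent. Right, median log2 offset of the 77 core members from the CTL mean. Points are tumors, numbered by replicate, and bars are the mean and SD of 6 tumors. CTL replicates 3 and 4 stand highest in both panels, and the groups overlap.

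By subunit, 8 of the 46 core large subunit members were called lower (17.4%, against 20.7% of all genes) and 1 higher, with a median of -0.17. Of the 31 core small subunit members, 12 were called lower (38.7%) and 1 higher, with a median of -0.21. Whether the subunits differed was not tested. The summed large to small ratio, rounded for each tumor, ran from 1.38 to 1.40 in CTL and from 1.39 to 1.41 in knockdown tumors, with overlapping groups. The counts depended on single tumors. Without CTL replicate 3, CTL replicate 4 or knockdown replicate 4, 13 members were called lower, and without knockdown replicate 3, 12 were. Of all genes, 19.2 to 20.5% were called lower without each of these tumors in turn. Without CTL replicate 1, CTL replicate 6 or knockdown replicate 2, 2 members were called higher, and without CTL replicate 5, knockdown replicate 5 or knockdown replicate 6, 1 was. Of the 15687 genes, 2984 to 3060 were called higher without each of these tumors in turn.

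**Figure D2:**
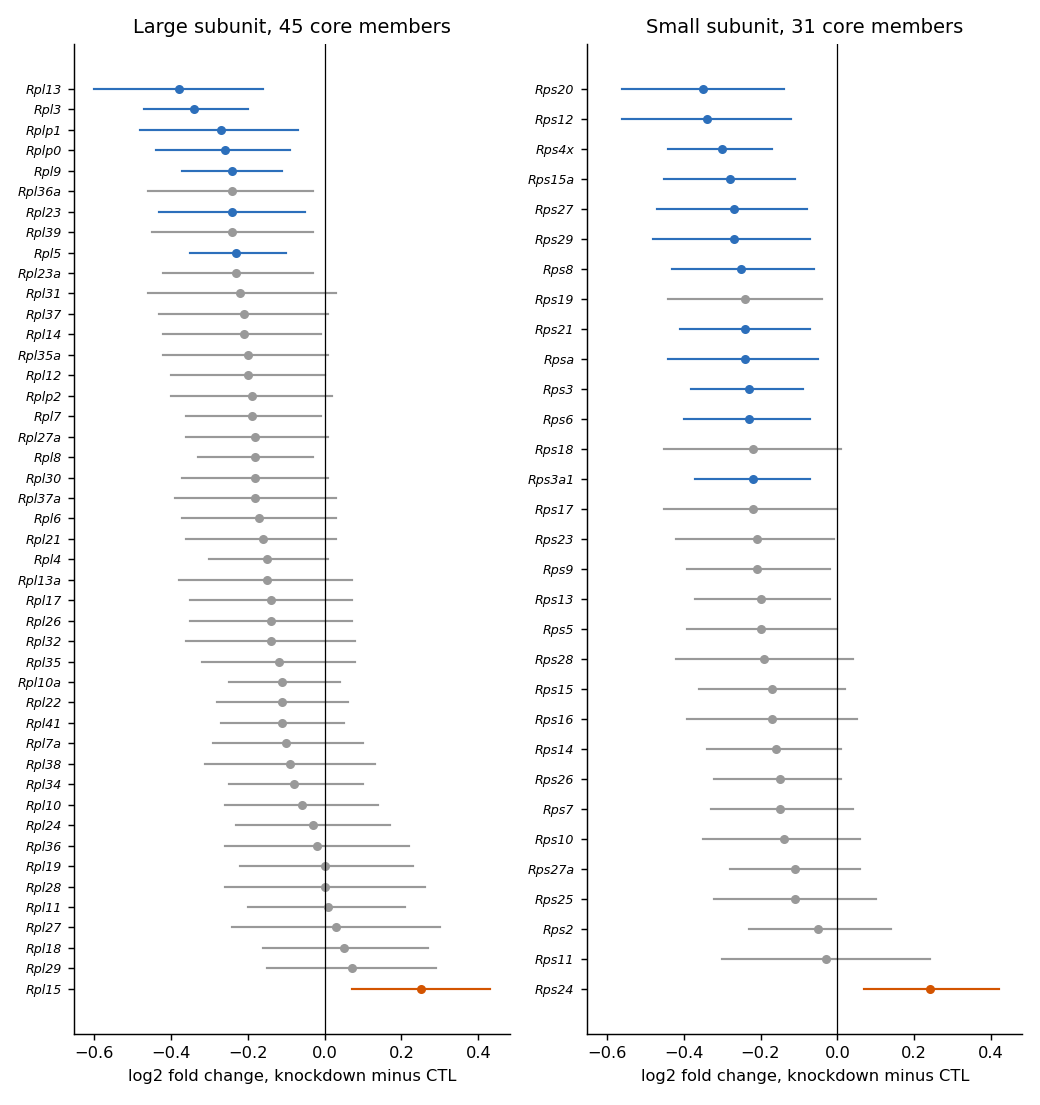
Log2 fold change of 76 core members, 45 of the large and 31 of the small subunit, knockdown minus CTL, with its 95% interval from limma (6 tumors a group). Blue marks members called lower and orange members called higher at an adjusted p under 0.05. Point estimates run from -0.38 (*Rpl13*) to 0.25 (*Rpl15*).

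The groups were separate, with each knockdown tumor below each CTL tumor, for 3 members. Of all genes 10.9% had separate groups in this direction, and 10.6% in the other, where there was no member. *Rpl3*, a large subunit protein near the peptidyl transferase center, had 32656, 33750 and 38507 normalized counts (lowest, median and highest) in CTL and 24649, 27436 and 29734 in knockdown tumors. It fell by 20.8%, a log2 fold change of -0.34 with a standard error (SE) of 0.06 (limma adjusted p = 0.000754). The gene lies on chromosome 15 from 80077791 to 80091868. *Rps4x*, an X-linked small subunit gene, had 31824, 34296 and 37849 in CTL and 26017, 28124 and 30834 in knockdown tumors. Its log2 fold change was -0.30 (SE 0.06, limma adjusted p = 0.00162). *Rps15a* had 9916, 10380 and 12426 in CTL and 7639, 9086 and 9693 in knockdown tumors, a log2 fold change of -0.28 (SE 0.08, limma adjusted p = 0.0109).

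Other large falls among called members overlapped between the groups. *Rpl13*, a large subunit gene on chromosome 8, had 26440, 34710 and 41527 normalized counts in CTL and 23356, 26179 and 28665 in knockdown tumors, and fell by 23.1%. CTL replicate 3 was the highest tumor. *Rps20*, a protein of the small subunit head, fell by 21.6%, from a median of 17220 to 13960. *Rps12*, a protein of the small subunit beak, had 22800, 25467 and 31963 normalized counts in CTL and 17537, 21338 and 23831 in knockdown tumors, and fell by 21.2%.

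Among members with known roles beyond the ribosome, *Rpl5* was lower while *Rpl11*, its partner in the 5S particle that binds Mdm2, was not called. *Rpl5* had 24304, 25475 and 28343 normalized counts in CTL and 20607, 22152 and 24350 in knockdown tumors, with a log2 fold change of -0.23 (SE 0.06, limma adjusted p = 0.00655). *Rpl11* had 15225, 16072 and 20312 in CTL and 14324, 17411 and 19715 in knockdown tumors, with a log2 fold change of 0.01 and a 95% interval from -0.20 to 0.21. *Rps6*, the substrate of S6 kinase, was lower by -0.23 (log2, SE 0.08, limma adjusted p = 0.0263). *Rpsa*, also known as a laminin receptor, was lower by -0.24 (log2, SE 0.09, limma adjusted p = 0.0453). *Rps19*, mutated in Diamond-Blackfan anemia, had a log2 fold change of -0.24 that did not pass (limma adjusted p = 0.0513), and *Rps27a*, made as a fusion with ubiquitin, had -0.11 (limma adjusted p = 0.311). The stalk proteins recruit elongation factors to the large subunit. *Rplp0* and *Rplp1* were called lower at -0.26 and -0.27 (log2), and *Rplp2* had -0.19 without passing (limma adjusted p = 0.132). Some of these calls rested on single tumors. That of *Rpsa* ended without any of 9 tumors (-0.26 to -0.19), namely CTL replicates 2 to 6 and knockdown replicates 1, 3, 4 and 6, and that of *Rplp1* without any of CTL replicates 3 and 4 and knockdown replicates 1, 3 and 4 (-0.26 to -0.22). That of *Rps6* ended without CTL replicate 3, 4 or 5 or knockdown replicate 3 (-0.22 to -0.19).

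*Rpl7*, a large subunit protein and the reference gene of the study's quantitative PCR on these tumors, had 25322, 29054 and 32764 normalized counts in CTL and 22595, 25889 and 29328 in knockdown tumors. Its log2 fold change of -0.19 (SE 0.08) did not pass over all genes (limma adjusted p = 0.0862), and the 95% interval ran from -0.36 to -0.01. An exact two-sided permutation test of *Rpl7* alone over the 924 arrangements gave p = 0.0455. The groups overlapped, with 5 of 6 knockdown tumors below the CTL median. After rescaling each tumor to the same total, *Rpl7* was called lower at -0.23 (limma adjusted p = 0.0151), and leaving out CTL replicate 1 (-0.23, adjusted p = 0.0436 by limma) or knockdown replicate 5 (-0.22, adjusted p = 0.0471 by limma) also brought it past the threshold. Of 30 common reference genes, 6 were called lower and 11 higher. The members among them were *Rplp0* (-0.26) and *Rps29* (-0.27), which were lower, and *Rps18* (-0.22), *Rpl7*, *Rpl13a* (-0.15), *Rpl32* (-0.14) and *Rpl19* (0.00), which did not pass. Of the 23 others, 4 were lower and 11 higher, from *Eef1a1* (-0.39) and *Eef2* (-0.29), which encode elongation factors, to *Pgk1* (0.63), *Gapdh* (0.63), both of glycolysis, and *Tfrc* (1.54), the transferrin receptor.

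**Figure D3:**
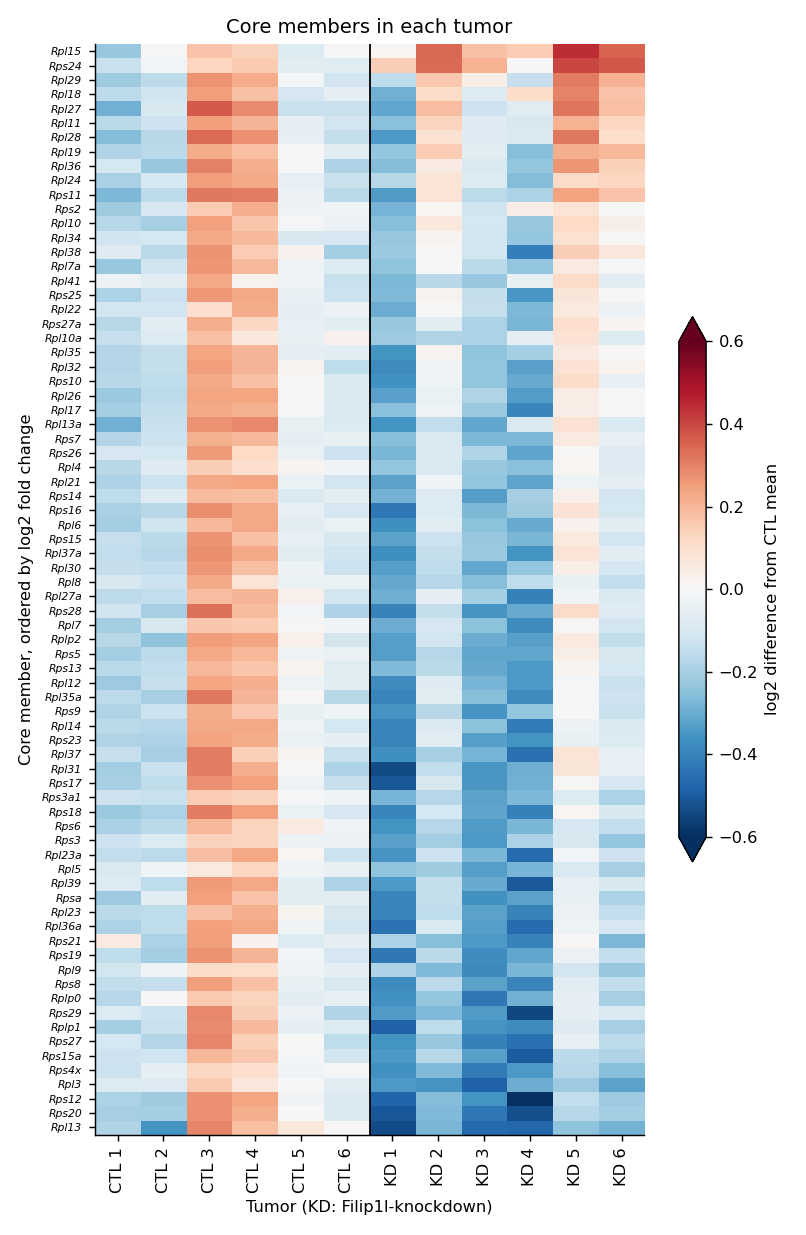
Log2 difference of 76 core members from their CTL means in the 12 tumors, from blue (lower) to red (higher), ordered by log2 fold change from *Rpl15* at the top to *Rpl13* at the bottom. Color runs mostly down the columns. CTL replicates 3 and 4 are high, and knockdown replicates 1, 3 and 4 are low in most rows.

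Members on chromosomes 8 and 14 stood near the ends of the order. The median log2 fold change of the other genes was -0.186 on chromosome 8, 0.394 on chromosome 14 and -0.352 on chromosome 19, which holds no member, and between -0.039 and 0.049 on the remaining chromosomes. *Rpl15* and *Rps24*, on chromosome 14, were the core members called higher. *Rpl15* had 10776, 12619 and 14230 normalized counts in CTL and 12727, 15159 and 17158 in knockdown tumors, a log2 fold change of 0.25 (SE 0.08, limma adjusted p = 0.0296). *Rps24*, which is needed to process the 18S rRNA precursor, had 20104, 21453 and 24602 in CTL and 22000, 26718 and 29119 in knockdown tumors, a log2 fold change of 0.24 (SE 0.08, limma adjusted p = 0.0247). Groups overlapped for both. With each tumor's chromosome medians removed, *Rpl15* and *Rps24* turned to -0.13 and -0.14 and *Rpl13* moved to -0.18, with no one of these 3 past the threshold. Both rises were also lost without any of CTL replicates 1, 5 and 6 and knockdown replicates 2, 5 and 6, where *Rpl15* lay between 0.20 and 0.25 and *Rps24* between 0.21 and 0.23. Of the 69 core members off chromosomes 8, 14, 19 and X, 17 were lower by limma (24.6%, near the 20.7% of all genes). By limma 0 were higher, against 21.1% of all genes (0 also at an unadjusted p under 0.05, and by edgeR and DESeq2). The median of the 69 was -0.18. On chromosome X, *Rps4x* was lower, whereas *Rpl39* (-0.24), *Rpl36a* (-0.24) and *Rpl10* (-0.06) did not pass.

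**Figure D4:**
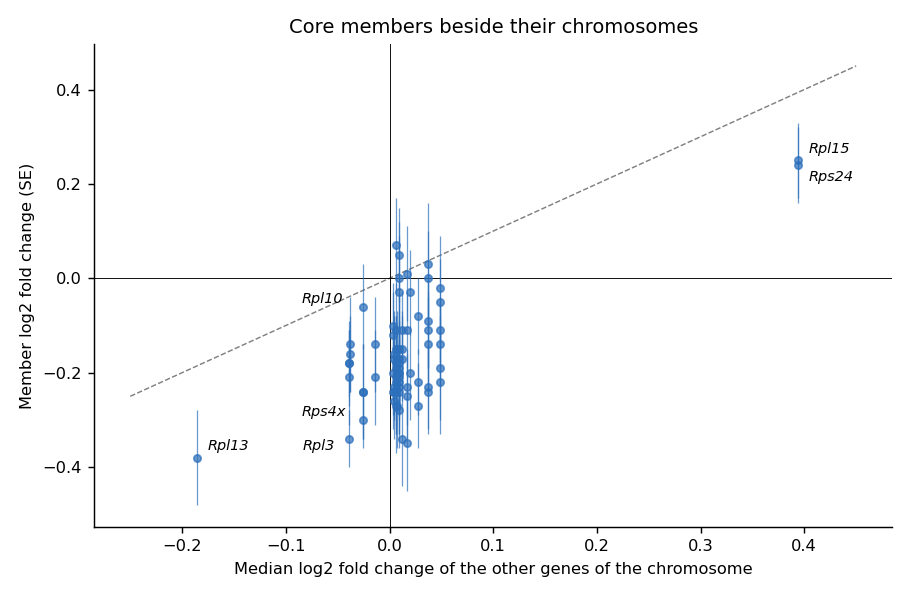
Log2 fold change of 76 core members (points, with SE) against the median log2 fold change of the other genes of their chromosome. The dashed line marks equal values. *Rpl15* and *Rps24* stand at 0.394 and *Rpl13* at -0.186 on the horizontal axis, and most core members lie below the line.

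Members were also set against the block as a whole. Relative to the median member of each tumor, a scale chosen after seeing the data, 4 of the 87 members were called lower and 11 higher. Of all genes, 7.91% were lower and 29.1% higher on that scale. Both counts of members are smaller shares than these, so they are no result about the members. The share of all genes with separate groups on that scale is not given. *Rpl13* lies on chromosome 8, and *Rpl15* and *Rps24* lie on chromosome 14, described above. Among the lower members were *Rpl13* (-0.21), *Rps20* (-0.18) and *Rps12* (-0.17). *Rps20* and *Rps12* had separate groups there. The higher members were *Rps27l* (0.44), *Rpl15* (0.42), *Rps24* (0.42), *Rpl29* (0.24), *Rpl7l1* (0.24), *Rpl18* (0.22), *Rpl27* (0.20), *Rpl11* (0.18), *Rpl19* (0.17), *Rpl28* (0.17) and *Rpl3l* (1.92), of which *Rps27l*, *Rpl15*, *Rps24*, *Rpl29*, *Rpl18* and *Rpl11* had separate groups. On the deposited scale *Rpl19*, *Rpl28* and *Rpl11* had log2 fold changes of 0.00, 0.00 and 0.01, so they were level there while most of the block lay below.

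Paralogs were compared with their partners within each tumor, as the log2 ratio of normalized counts plus 1, in 7 pairs with both genes listed. *Rps27l*, a p53 target that encodes a near copy of *Rps27*, rose against its partner. *Rps27l* had 1945, 2107 and 2388 normalized counts in CTL and 2149, 2705 and 2856 in knockdown tumors, a log2 fold change of 0.27 (SE 0.08, limma adjusted p = 0.0165), while *Rps27* was called lower at -0.27, a call that ended without CTL replicate 3 or 4 or knockdown replicate 3 or 4 (-0.25 to -0.22). Their ratio was -2.51 ± 0.13 in CTL and -1.96 ± 0.12 in knockdown tumors (log2, SD, n = 6 each), with separate groups (exact two-sided permutation p = 0.00216, the smallest these groups can give, and 0.00758 adjusted over the 7 pairs). *Rpl36al*, a paralog outside the naming rule, rose against *Rpl36a* in the same way, from -0.76 ± 0.03 to -0.32 ± 0.10 (exact permutation p = 0.00216, adjusted 0.00758), with log2 fold changes of 0.19 and -0.24 that did not pass by themselves. *Rpl7l1* rose against *Rpl7* by 0.25 (exact permutation p = 0.0130, adjusted 0.0227) in overlapping groups. Without both CTL replicate 5 and knockdown replicate 1, the ratios of *Rpl7l1* (0.24) and *Rpl3l* (1.67) no longer passed (exact permutation, adjusted p = 0.0694 for each). *Rpl22l1* against *Rpl22* (0.06), *Rpl39l* against *Rpl39* (-1.34) and *Rps4l* against *Rps4x* (-0.12) did not pass, with exact permutation p-values of 0.0736, 0.0693 and 0.535.

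*Rpl3l* replaces *Rpl3* in ribosomes of skeletal and heart muscle. It had 28.0, 7.58, 7.78, 27.9, 1.49 and 22.0 normalized counts in CTL replicates 1 to 6 and 34.3, 17.7, 171, 38.2, 32.0 and 34.1 in knockdown replicates 1 to 6. Knockdown replicate 3 was far above the rest and the groups overlapped. In CTL replicate 5 the value rested on a single read, and the log2 ratio to *Rpl3* was lowest there, at -13.75. The log2 fold change was 1.75 (SE 0.63, limma adjusted p = 0.0380), and the ratio to *Rpl3* rose by 2.08 (exact permutation p = 0.00866, adjusted 0.0202). Without knockdown replicate 3 the log2 fold change was 1.34 and no longer passed (limma adjusted p = 0.0850), as also without CTL replicates 2, 3 or 5 or knockdown replicates 4, 5 or 6, where it ran from 1.28 to 1.81. Of 27 skeletal muscle markers, 25 rose and 0 fell by limma (0 also at an unadjusted p under 0.05, and by edgeR and DESeq2), 0 were at 0 in a tumor, and their sum was highest, at 145700, in knockdown replicate 3. The share of muscle in the *Rpl3l* difference was not tested. *Rpl39l*, a paralog known from testis and some cancers, had 15.0, 6.63, 95.3, 20.9, 13.4 and 21.2 in CTL and 1.01, 6.25, 5.22, 2.94, 9.51 and 29.7 in knockdown tumors. Its log2 fold change of -1.58 did not pass (limma adjusted p = 0.0688), and in knockdown replicate 1 it rested on a single read.

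**Figure D5:**
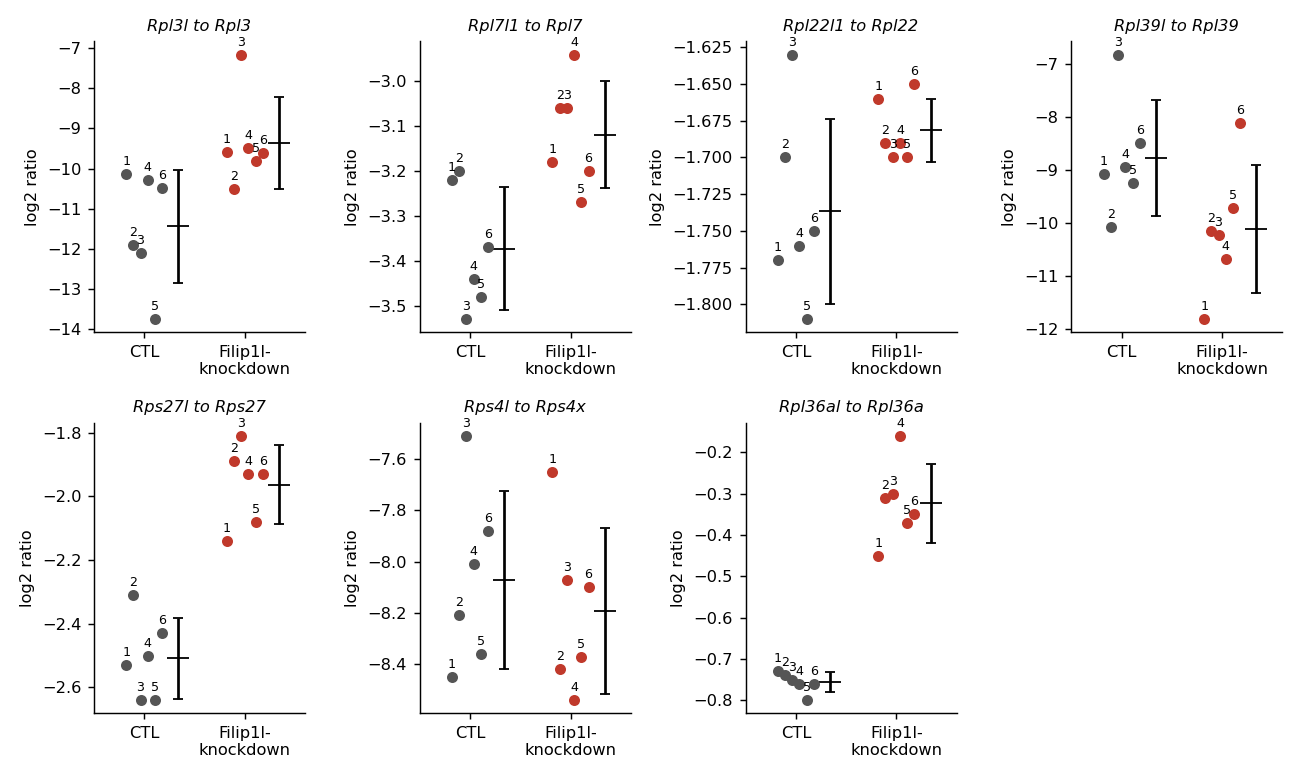
Log2 ratio of each paralog to its partner in CTL and *Filip1l*-knockdown tumors. Points are tumors, numbered by replicate, and bars are the mean and SD of 6 tumors. Each panel has its own vertical scale. The groups are separate for *Rps27l* to *Rps27* and for *Rpl36al* to *Rpl36a*.

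Levels between members were compared as mean normalized counts per kilobase of transcript. The highest were *Rps24* (51700), *Rplp1* (48900), *Rps12* (48200), *Rplp0* (41000) and *Rps2* (40600), and the lowest *Rps3a3* (31.4), *Rpl3l* (34.1), *Rpl39l* (34.4), *Rpl6l* (45.5) and *Rpl32l* (46.5). Of the lowest, *Rps3a3*, *Rpl6l* and *Rpl32l* are annotated pseudogenes. *Rps20* had 4300 per kilobase, but the transcript used for it is 3706 bases long, which may understate its level. Across the 77 core members, the log2 fold change had a Pearson r of 0.18 with GC content, -0.27 with transcript length, -0.17 with mean normalized count and 0.04 with the level per kilobase. These describe genes and not replicates.

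The other genes varied with transcript length, taken here from the coding transcript of middle length of each gene. The levels above used a transcript chosen in another way, so a member's length can differ between the comparisons. Those with transcripts up to 500 bases had a median log2 fold change of 0.133, those above 500 and up to 1000 bases 0.063 and the longest -0.068. The 14 members of up to 500 bases had -0.208, and the 49 above 500 and up to 1000 bases -0.168. With the trends of each tumor with GC content and transcript length removed, 70 members were called lower and 0 higher by limma, with a median of -0.33. Of all genes, 26.3% were called lower there, and 2764 of 15687 higher. After rescaling to the same total, 48 members were called lower and 4 higher. Of all genes, 23.4% were lower there and 2940 of 15687 higher, with the median of all genes at -0.03. The members' median was -0.19 with TMM and with 75th percentile scaling.

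The 5 members annotated as pseudogenes had mean levels of 15.6 to 133 normalized counts in CTL tumors, and 0 passed in limma (0 also at an unadjusted p under 0.05, and 0 adjusted by edgeR and DESeq2). Of the 64 listed -ps entries, 2 were called lower, *Rpl3-ps1* (-0.36) and *Rps15a-ps5* (-0.53), and 0 higher by limma (2 at an unadjusted p under 0.05, and 1 adjusted by edgeR and by DESeq2). They took 0.0191 to 0.0287% of the normalized counts. Ribosomal protein genes have many near-identical processed copies in the genome, and the study's methods name unique hits as what was counted. The level of a member is uncertain by any reads it shares with a copy. The rule also missed *Fau*, which encodes Rps30 fused to a ubiquitin-like protein and was called lower at -0.39.

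Genes that work with the members were read against the 20.7% of all genes called lower and the 21.1% called higher. Of 40 other TOP mRNAs and translation factors, 19 were lower (47.5%) and 2 higher (5.0%), with a median of -0.17. These include *Fau*. The lower ones with the largest change were *Eef1g* (-0.75), a subunit of elongation factor 1 on chromosome 19, *Snhg1* (-0.67), a host gene of small nucleolar RNAs on the same chromosome, and *Snhg8* (-0.58) on chromosome 3. *Eif5a* (0.26) and *Eif4e* (0.18), an initiation factor that binds the mRNA cap, were higher. Of 77 ribosome biogenesis factors, 17 were lower (22.1%, near the share of all genes) and 3 higher (3.9%), with a median of -0.08. *Noc3l* (-0.68), *Urb2* (-0.48) and *Nolc1* (-0.37) were lower, on chromosomes 19, 8 and 19. *Rrs1* (0.51), *Eif6* (0.42), which keeps the subunits apart until the large one is mature, and *Gnl3* (0.23) on chromosome 14 were higher. Of 16 chaperones and assembly factors of ribosomal proteins, which include the member *Rpl7l1*, 5 were lower (33.3% of the 15 without it), among them *Znhit6* (-0.51), *Ipo7* (-0.32) and *Heatr3* (-0.27), and 2 higher, *Ipo5* (0.27), on chromosome 14, and *Pdcd2l* (0.19).

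The mitochondrial ribosomal proteins are encoded by nuclear genes and build the ribosome of another compartment. Of 80, 34 were higher (42.5%) and 5 lower (6.25%), with a median of 0.19, and 67 lay above 0. The largest rises were *Mrpl57* (0.69), *Mrps16* (0.53) and *Mrpl52* (0.47), all on chromosome 14, and the largest falls *Mrps6* (-0.53), *Mrpl49* (-0.42) and *Mrpl11* (-0.41), with *Mrpl49* and *Mrpl11* on chromosome 19. Their median offset was -0.10 to 0.13 in CTL and -0.03 to 0.28 in knockdown tumors. With GC and length trends removed, the median was 0.06 and 10 were called higher. The difference between the cytosolic and the mitochondrial genes was not tested.

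Regulators of ribosomal protein synthesis were counted in the same way. Of 28 genes of mTORC1, Myc and S6 kinase regulation, 9 were higher (32.1%) and 1 lower (3.57%), with a median of 0.06. Past both thresholds rose *Rragd* (1.79), a GTPase that brings mTORC1 to lysosomes, from a CTL mean of only 24.4 normalized counts. So did *Mxd1* (1.40), a Max partner that opposes Myc, and *Rps6ka1* (1.06), a kinase downstream of ERK. The other genes called higher were *Larp1b* (0.82), *Deptor* (0.66), *Mycn* (0.66), *Ddit4* (0.63), *Rps6kb1* (0.23) and *Larp1* (0.20). *Tsc2* (-0.22) fell. The activity of mTORC1 was not tested. Of 26 p53 targets linked to ribosome stress, 9 were higher (34.6%), among them *Cdkn1a* (0.87), *Gdf15* (0.86) and *Psrc1* (0.72), and 3 were lower (11.5%), *Trp53inp1* (-0.46), *Bbc3* (-0.26) and *Ckap2* (-0.24). Of 21 genes for stalled ribosomes and quality control, 4 were lower (19%, near the share of all genes), among them *Usp10* (-0.37), *Ascc3* (-0.31) and *Usp21* (-0.24), and 1 was higher (4.76%), *Gtpbp2* (0.36).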

How the data were processed

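RNA of 6 CTL and 6 *Filip1l*-knockdown tumors was sequenced after poly(A) enrichment. The submitters' processing notes name Trimmomatic 0.36, STAR 2.5.2b, Subread 1.5.2 (featureCounts), bcl2fastq 2.20, DESeq2 and the build mm10. The deposited values are a signal, the authors' gene counts divided by DESeq2 size factors. Each value was a whole multiple of a step per tumor (100% within 1e-06), so whole reads were recovered for count models. Symbols, positions and lengths came from GENCODE vM21. Values were tested as log2(value + 1) with limma 3.58.1 without covariates (trend, R 4.3.3) over 15687 genes. A filter at a mean of 5 removed 0 genes. Single values and pair ratios were tested by exact permutation of the tumors (two-sided). Called means an adjusted p under 0.05, with an absolute log2 fold change over 1 where stated. Simulated data with 200 changed genes were used to test the fit. On recovered reads, edgeR 4.0.16 called 3364 genes lower and 3262 higher, and DESeq2 1.42.0 called 3393 and 3567. Named were *Rpl7*, called members by size, paralogs, extremes of level or change, members on chromosomes 8, 14, 19 and X, known roles, reference genes and the 3 largest called changes of each list. Members and lists were chosen with earlier results of these data known. Some named genes are not reported here.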

Additional observations from a re-analysis of the deposited data

Results flagged for a closer look

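Of 100 groups of 6 tumors checked for a single tumor standing apart, over the named members, their summed share and the pair ratios, 4 had one, where chance gives about 1 in 20. *Rpl39l* had 95.27 normalized counts in CTL replicate 3 and 29.7 in knockdown replicate 6, each far above the other tumors of its group. *Rpl3l* had 171.1 normalized counts in knockdown replicate 3, and its log2 ratio to *Rpl3* was -7.16 in the same tumor.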

How the results depend on the processing

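Of the 20 members called lower, 8 (*Rpl3*, *Rpl5*, *Rpl9*, *Rps3*, *Rps4x*, *Rps12*, *Rps15a* and *Rps20*) were called lower under each of the 28 alternatives. Of the 4 called higher, 0 were called higher under each. The alternative without the filter could not differ from the main fit, because the filter removed 0 genes. The members called lower numbered 48 after rescaling to the same total, 70 with GC and length trends removed, 67 with these removed and a replicate block, 11 with the replicate block, 13 without both tumors farthest from their groups (CTL replicate 5 and knockdown replicate 1), and 12 to 30 without each tumor in turn. In the same order, 23.4, 26.3, 24.1, 18.4, 20.3 and 18.5 to 21.8% of all genes were called lower. Members called higher numbered 0 with GC and length trends removed, 1 with the block added, 2 with chromosome medians removed, and 1 to 4 without each tumor. In the same order, 2764, 2602, 3278 and 2984 to 3508 of the 15687 genes were called higher. Relative to the median member 4 were lower and 11 higher, and relative to *Rpl7* 3 and 10, both chosen after seeing the data. Of the 15687 genes, 1241 were lower and 4572 higher on the first scale, and 1214 and 4858 on the second. Past both thresholds stood 0 members without a variance trend, with array weights and without both tumors, 2 with GC and length trends removed and a replicate block, and 0 to 1 without each tumor. The share of all genes past both thresholds was 10.2% in the main fit and is not given for these alternatives. The members' median ran from -0.21 to -0.13 without each tumor and was -0.11 with array weights, with 14 members and 23.5% of all genes called lower. *Rpl7* passed at -0.23 with the same total and at -0.31 with GC and length trends removed, with and without the block, and also without CTL replicate 1 or knockdown replicate 5, and ran from -0.23 to -0.15 without each tumor. Of the pairs, 2 passed without both tumors, and 4 to 5 without each tumor. Called genes of the pathway lists ran from 103 to 147 and the share difference from -0.929 to -0.645 without each tumor. The replicate numbers did not pair the tumors (same-number correlations from -0.269 to 0.099, and 0 CTL tumors closest to their own number). With the block 3 members were called higher, beside 3013 of the 15687 genes.

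Directions turned for *Rpl15* (-0.13), *Rps24* (-0.14), *Rpl11* (-0.01) and *Rps3a2* (-0.28) with chromosome medians removed. With GC and length trends removed, with and without the block, *Rpl11* was -0.17, *Rpl6l* -0.14, *Rpl7l1* -0.09 and *Rps3a2* -0.05. With the same total *Rpl11* was -0.03 and *Rpl6l* -0.01, and with edgeR *Rpl6l* was -0.01. With array weights *Rpl22l1* was 0.01, *Rpl24* 0.04, *Rpl36* 0.07 and *Rps2* 0.01. Without both tumors *Rpl36* was 0.03. Without each tumor *Rpl11* ran from -0.03 to 0.06, *Rpl24* from -0.07 to 0.02, *Rpl36* from -0.08 to 0.04, *Rpl6l* from -0.12 to 0.16, *Rps3a2* from -0.02 to 0.19 and *Rps3a3* from -0.10 to 0.38. The cause was not tested.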
